A study of Homo sapiens with 6 samples.

Results

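The UGT2B genes encode UDP-glucuronosyltransferases, enzymes of the endoplasmic reticulum that attach glucuronic acid to steroids, bile acids and drugs. The members described here are the probe sets of the array whose platform annotation names UGT2B4, UGT2B7, UGT2B10, UGT2B11, UGT2B15, UGT2B17 or UGT2B28. They came to 6 probe sets of 4 genes, out of 54675 probe sets and 19775 gene symbols in all. UGT2B15 had 3 probe sets, and UGT2B4, UGT2B17 and UGT2B28 had 1 each. Each of the 6 carried a single symbol, 0 carried several, and all 6 passed the filter on dim signal. UGT2B7, UGT2B10 and UGT2B11 had no probe set listed under their symbols and were not analysed here.

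Expression was measured in VCaP cells, a human prostate cancer line with a fusion of TMPRSS2 to ERG. The 3 groups of 2 arrays were PRMT5 shRNA 1, PRMT5 shRNA 2 and NTC shRNA, the control hairpin. PRMT5 is an arginine methyltransferase. Every group, NTC shRNA included, received 100 ng/ml doxycycline for 3 days in medium with serum, so the comparisons are between hairpins in doxycycline-treated cells. The labels do not say that the 2 arrays of a group came from separate cultures, so the p-values rest on a spread that may be only technical.

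A glucuronide cannot activate the androgen receptor and is exported and excreted, so glucuronidation ends the action of an androgen in the cell that carries it out. In the human prostate this step is known above all for UGT2B15 and UGT2B17, which act on testosterone, dihydrotestosterone and their metabolites, with UGT2B28 and UGT2B11 also found there. UGT2B4, UGT2B7 and UGT2B10 are best known from the liver, where UGT2B4 acts on bile acids.

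The deposited values are MAS5 intensities on a linear scale, and differences are given on the log2(intensity + 16) scale, which understates the change of dim probe sets. Array medians were 14.8 to 16.5. Arrays of the same group correlated at 0.996 and arrays of different groups at 0.977 to 0.988. PRMT5 itself stood at 15.9% of the NTC shRNA signal with PRMT5 shRNA 1 and at 36.2% with PRMT5 shRNA 2. All 8 measured prostate luminal markers of a list of 10, KLK2 and KLK3 among them, reached the array median, and their summed intensity was 12109 to 12491 with PRMT5 shRNA 1, 11860 to 12890 with PRMT5 shRNA 2 and 10151 to 10536 with NTC shRNA. KLK3, the gene of prostate-specific antigen, was at 223% of NTC shRNA with PRMT5 shRNA 1 and at 218% for PRMT5 shRNA 2. With both hairpins averaged in limma's fit, 4 of the 8 were higher and 1, the homeobox factor HOXB13, was lower by adjusted p under 0.05 (13.5% of all probe sets were higher and 14.7% lower). HOXB13 had -0.47 with PRMT5 shRNA 1 and -0.09 with PRMT5 shRNA 2, where it did not pass (limma, adjusted p = 0.000955 and 0.445). The hairpins differed (limma, adjusted p = 0.00637), and its 2 kept probe sets ranged between -0.28 and 0.00, 1 of them called. The markers of stromal, endothelial and immune cells summed to 49.9 to 58.2, 56.0 to 69.9 and 53.8 to 60.7 in the same groups, with 5 of 6 under the median on every array. In bulk RNA, fewer cells of a type and less RNA per cell cannot be told apart.

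UGT2B transcripts were lower with both PRMT5 hairpins. In limma's fit with both hairpins averaged against NTC shRNA, 5 of the 6 probe sets were lower at a Benjamini-Hochberg adjusted p under 0.05, where 14.7% of all 28601 probe sets tested were lower. All 4 measured genes were among them, and 4 of the 6 probe sets were at least 2-fold lower on that scale, against 0.538% of all probe sets. The members were chosen with earlier results of these data known, so these shares are a description and no test of the group. The calls of UGT2B15 and UGT2B28 rest on probe sets with the suffix _x_at, whose probes match other sequences too. These may include signal of other members, and those of UGT2B4 and UGT2B17 lack the suffix. Over the 6 the median difference was -1.20, and over all probe sets tested it was -0.01. On each of the 5 probe sets, all 4 PRMT5 shRNA arrays lay below both NTC shRNA arrays. The share of all probe sets separated in this way was not counted, so that number has no background to be read against.

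UGT2B15, which glucuronidates dihydrotestosterone and androstanediol, fell with both hairpins on 2 of its 3 probe sets. Probe set 207392_x_at had 168.2 and 157.9 with PRMT5 shRNA 1, 249.9 and 278.6 with PRMT5 shRNA 2, and 507.1 and 510.9 with NTC shRNA. The groups did not overlap, and PRMT5 shRNA 1 arrays were the lowest. The means were 32.0% of the NTC shRNA signal with PRMT5 shRNA 1 and 51.9% with PRMT5 shRNA 2. On the log2 scale the difference was -1.55 ± 0.08 (SE) with PRMT5 shRNA 1 and -0.91 ± 0.08 with PRMT5 shRNA 2 (limma, adjusted p = 1.86e-07 and 1.82e-05). Averaged over both hairpins it was -1.23 ± 0.07 (limma, adjusted p = 3.17e-07), rank 92 from the lowest of 28601.

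The 2 other UGT2B15 probe sets did not behave alike. Probe set 216687_x_at had 24.6 and 22.8 with PRMT5 shRNA 1, 34.9 and 48.2 with PRMT5 shRNA 2, and 61.4 and 65.7 with NTC shRNA. With both hairpins averaged it fell by 0.74 ± 0.11 (SE; limma, adjusted p = 0.000532). Its mean was 37.3% of the NTC shRNA signal with PRMT5 shRNA 1 and 65.4% with PRMT5 shRNA 2 (limma, adjusted p = 0.000156 and 0.0232). Its call for PRMT5 shRNA 2 was lost without either NTC shRNA array, without its own replicate 1, and without the filter on dim probe sets. Probe set 217175_at had 12.9 and 26.8 with PRMT5 shRNA 1, 18.1 and 29.8 with PRMT5 shRNA 2, and 32.9 and 19.5 with NTC shRNA. These groups overlapped and lay near the array medians, and the averaged difference of -0.16 had a 95% interval of -0.56 to 0.24 (limma, adjusted p = 0.545). The suffix _x_at marks probe sets with probes that match other sequences too, and UGT2B genes are close paralogs, so signal of one member on another's probes may be included. Its size was not tested.

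The letters in front of UGT2B15 are shown because they let its sequence be compared with those of the unmeasured paralogs. Of the 7 genes, 4 had a promoter entry in RefSeq (GRCh38.p14), UGT2B15, UGT2B7, UGT2B10 and UGT2B11. The 250 bases before the UGT2B15 start, at chr4:68670653-68670902 on the minus strand, are given 5′ to 3′ with matches to the motifs below in capitals.
UGT2B15: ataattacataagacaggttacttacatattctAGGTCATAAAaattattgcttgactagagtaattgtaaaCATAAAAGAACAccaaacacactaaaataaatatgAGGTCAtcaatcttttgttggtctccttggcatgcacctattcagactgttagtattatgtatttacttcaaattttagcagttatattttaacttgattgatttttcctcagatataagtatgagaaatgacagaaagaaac

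Motifs were searched on both strands of the 300 bases around each start (250 before, 50 after). AGAACA, the androgen receptor half-site, matched 1 time in UGT2B15 and 0 times in UGT2B7, UGT2B10 and UGT2B11, and was present in 14.8% of the 35116 promoters of that length. AGGTCA, the half-site of several nuclear receptors, matched 2 times in UGT2B15, 0 times in UGT2B7 and 1 time each in UGT2B10 and UGT2B11, and was in 13.8% of promoters. TTTATG, a site of CDX homeobox factors, matched 2 times in UGT2B15, 2 in UGT2B7, 1 in UGT2B10 and 3 in UGT2B11, and was in 10.6%. GTTAAT, a half-site of HNF1 factors, matched 0 times in all 4 and was in 6.88%. In UGT2B15 one AGGTCA overlaps a match on the other strand to TTTATG by 2 bases. Only exact letters were counted, so a lack of matches does not mean that similar letters are absent. A match describes letters and is no evidence of binding.

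Around the start, in alignments with gaps allowed, 72% of the 300 UGT2B15 bases were identical in UGT2B10, 73.7% in UGT2B11 and 67% in UGT2B7. Aligned in the same way, UGT2A3 and UGT2A1 had 53% and 51.3%, whereas UGT2B10 and UGT2B11 shared 91.3%. A stretch of 45 bases was picked because it begins with the same 9 letters in each gene, so those 9 positions match by choice. It lies at chr4:68670664-68670708 (minus strand) for UGT2B15, chr4:68815939-68815983 (plus) for UGT2B10 and chr4:69096428-69096472 (plus) for UGT2B7.
UGT2B15: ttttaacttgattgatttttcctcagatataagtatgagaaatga
UGT2B10: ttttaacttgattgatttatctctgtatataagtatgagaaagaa
UGT2B7: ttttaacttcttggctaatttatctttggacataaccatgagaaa
Set position by position against UGT2B15 without gaps, 37 of the 45 were identical in UGT2B10 and 21 in UGT2B7, the 9 chosen letters included. UGT2B11 (chr4:69214759-69214803, minus) had the same 45 letters as UGT2B10.

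UGT2B17, the enzyme with the broadest known activity on testosterone and dihydrotestosterone, had 33.3 and 39.5 with PRMT5 shRNA 1, 52.4 and 50.2 with PRMT5 shRNA 2, and 123.1 and 111.6 with NTC shRNA (207245_at). No group overlapped another. The signal was 31.0% of NTC shRNA with PRMT5 shRNA 1 and 43.7% with PRMT5 shRNA 2. On the log2 scale the differences were -1.35 ± 0.11 (SE) and -0.99 ± 0.11 in that order (limma, adjusted p = 5.12e-06 and 9.21e-05), and -1.17 ± 0.09 averaged (limma, adjusted p = 5.14e-06).

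UGT2B28, a steroid-conjugating relative also known from androgen metabolism, showed the largest averaged difference of the 6 probe sets on this scale, while with a pseudocount of 1 that of UGT2B4 was larger (-1.93 for UGT2B28 and -2.00 for UGT2B4). Its intensities were 36.0 and 43.0 with PRMT5 shRNA 1, 63.0 and 83.2 with PRMT5 shRNA 2, and 205.7 and 208.5 with NTC shRNA (211682_x_at). The suffix of this probe set, the only one of UGT2B28, means that signal of other members may be included. The means were 19.1% of the NTC shRNA signal with PRMT5 shRNA 1 and 35.3% with PRMT5 shRNA 2. On the log2 scale the differences were -2.01 ± 0.12 (SE) and -1.33 ± 0.12 in that order (limma, adjusted p = 6.47e-07 and 2.34e-05), and -1.67 ± 0.11 averaged, rank 35 from the lowest (limma, adjusted p = 7.41e-07).

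UGT2B4, the bile acid enzyme of the liver, had 11.2 and 14.5 with PRMT5 shRNA 1, 19.1 and 22.8 with PRMT5 shRNA 2, and 69.2 and 67.7 with NTC shRNA (206505_at). Both PRMT5 shRNA 1 arrays lay under their array medians, so with those medians in their place UGT2B4 was at least 4.15-fold lower there. With PRMT5 shRNA 2 it stood at 30.6% of NTC shRNA. The log2 differences were -1.55 ± 0.11 (SE) and -1.19 ± 0.11 (limma, adjusted p = 2.94e-06 and 3.38e-05), and -1.37 ± 0.10 averaged (limma, adjusted p = 2.33e-06). The averaged value was -2.00 with a pseudocount of 1 and -0.71 with 64, and was called in both. Albumin (ALB), a marker on the hepatocyte list, was 894 ± 16.1 with PRMT5 shRNA 1, 885 ± 38.5 with PRMT5 shRNA 2 and 887 ± 80.0 with NTC shRNA (SD, n = 2). The list summed to 1164 to 1189, 1189 to 1272 and 1079 to 1174 in the same groups, with 4 of 10 markers under the median on every array. ALB makes up most of that sum. Of the 6 hepatocyte markers tested, 2 rose with both hairpins averaged at adjusted p under 0.05 in limma's fit (13.5% of all probe sets were higher). They were TTR, a thyroid hormone carrier, by 0.57 ± 0.08 (SE; limma, adjusted p = 0.000471), and CYP2E1, a drug-metabolising enzyme. TTR had 0.36 with PRMT5 shRNA 1 and 0.78 with PRMT5 shRNA 2, which differed (limma, adjusted p = 0.00972). CYP2E1, whose NTC shRNA arrays lay under their medians, rose at least 1.65-fold with PRMT5 shRNA 1 and 1.44-fold for PRMT5 shRNA 2 (limma, adjusted p = 0.00190 averaged).

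**Figure D1:**
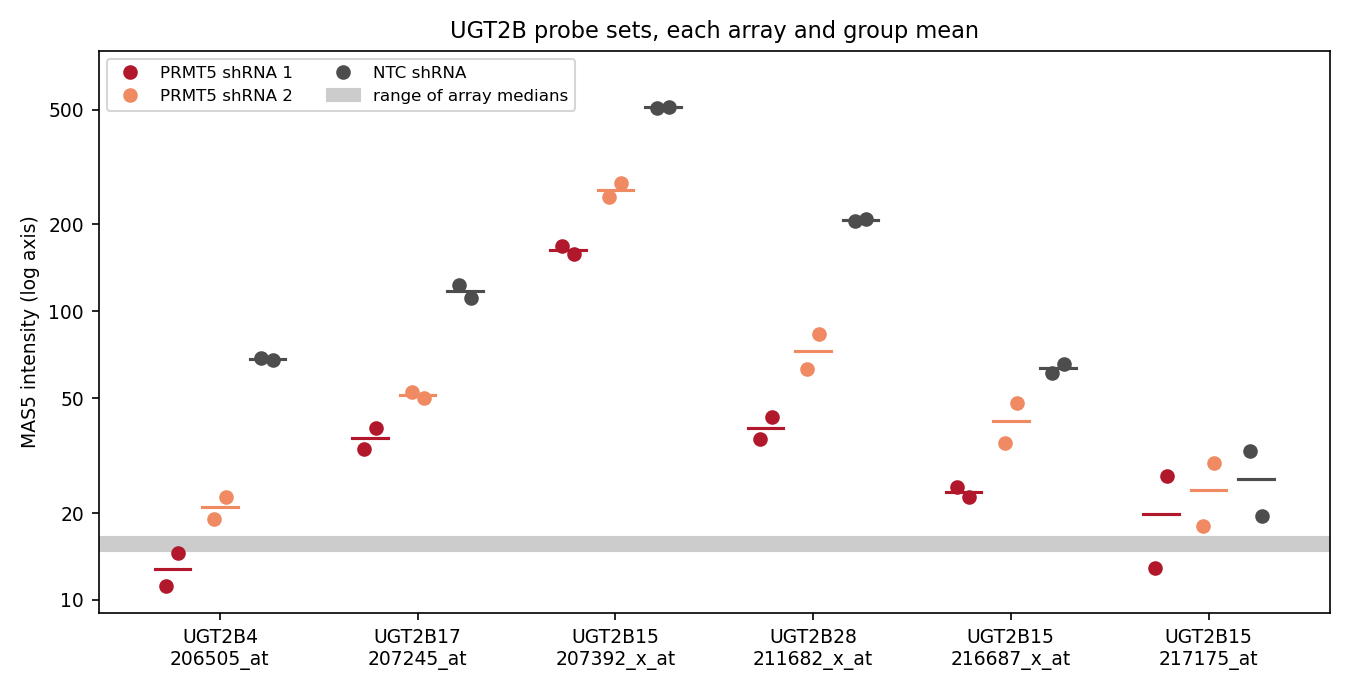
MAS5 intensity (log axis) of the 6 UGT2B probe sets on each array, with the group mean as a bar and the range of the array medians in grey. The PRMT5 shRNA 1 and PRMT5 shRNA 2 arrays lie below the NTC shRNA arrays on 5 probe sets and overlap them on 217175_at.

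The hairpins also differed from each other. With PRMT5 shRNA 1, 5 of 6 probe sets were lower than with NTC shRNA (19.0% of all probe sets were lower), all 5 at least 2-fold (0.787% of all). With PRMT5 shRNA 2, 5 of 6 were lower (8.65% of all), and 2, those of UGT2B4 and UGT2B28, at least 2-fold on the log2(intensity + 16) scale (0.434% of all). UGT2B17, at -0.99 on that scale, was 2.29-fold lower by the intensities themselves. These comparisons share the NTC shRNA arrays. Directly compared, PRMT5 shRNA 2 was higher than PRMT5 shRNA 1 on 5 of 6 probe sets, where 13.1% of all probe sets were higher.

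The difference of PRMT5 shRNA 2 minus PRMT5 shRNA 1 was 0.68 ± 0.12 (SE) for UGT2B28 and 0.65 ± 0.08 for UGT2B15 207392_x_at (limma, adjusted p = 0.00329 and 0.000594). It was 0.53 ± 0.13 for UGT2B15 216687_x_at (limma, adjusted p = 0.0123), a call lost without replicate 2 of either hairpin. For UGT2B17 it was 0.36 ± 0.11 (limma, adjusted p = 0.0305). For UGT2B4 the fit gave 0.36 ± 0.11 (limma, adjusted p = 0.0410), but with the PRMT5 shRNA 1 arrays at their medians the intensity was at least 1.26-fold higher with PRMT5 shRNA 2, and no more exact size can be given. The calls for UGT2B28 and for UGT2B15 207392_x_at held in every alternative run. That for UGT2B4 was lost when any of the 6 arrays was left out. For 217175_at the difference was 0.17 with a 95% interval of -0.29 to 0.63. PRMT5 differed in the same direction, by 1.09 ± 0.08 (limma, adjusted p = 7.72e-05).

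The UGT1A genes, the other large family of glucuronosyltransferases, moved the opposite way. They share their last exons, so 5 probe sets that name 6 to 9 UGT1A genes each read shared sequence and are not independent. All 5 were higher with both hairpins averaged (13.5% of all probe sets were higher). Probe set 204532_x_at had 453.1 and 452.3 with PRMT5 shRNA 1, 321.3 and 304.4 with PRMT5 shRNA 2, and 93.1 and 93.0 with NTC shRNA, which is 4.87-fold and 3.36-fold over NTC shRNA. Its averaged difference was 1.85 ± 0.07 (SE; limma, adjusted p = 1.06e-08), and the 5 ranged between 1.68 and 1.90. All 5 were lower with PRMT5 shRNA 2 than with PRMT5 shRNA 1 (12.7% of all probe sets were lower). Which UGT1A gene carries the signal cannot be read from these probe sets, since the single-symbol probe sets of UGT1A1 and UGT1A6 lay under the filter. UGT8, which adds galactose to ceramide, was the other glycosyltransferase tested, at 1166 ± 54.4 with PRMT5 shRNA 1, 906 ± 45.3 with PRMT5 shRNA 2 and 1450 ± 40.9 with NTC shRNA (SD, n = 2), and fell by 0.49 ± 0.06 (SE; limma, adjusted p = 7.59e-05).

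**Figure D2:**
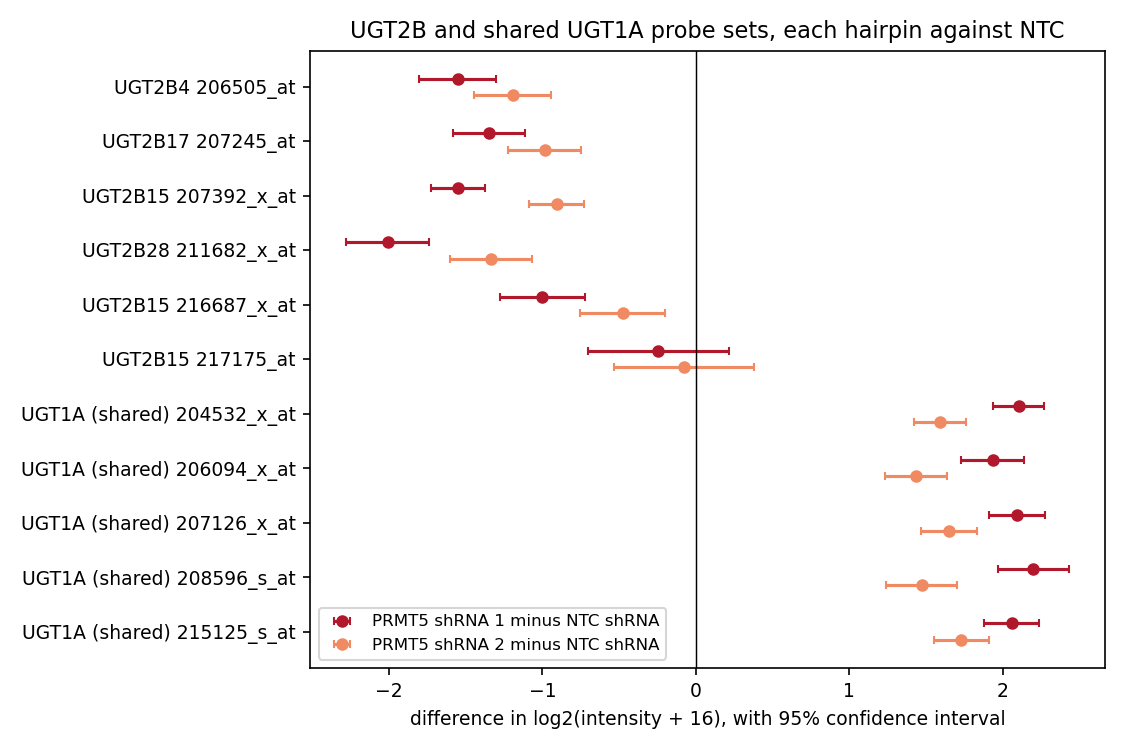
Difference in log2(intensity + 16) of PRMT5 shRNA 1 and PRMT5 shRNA 2 from NTC shRNA, with 95% confidence intervals, for the 6 UGT2B probe sets and the 5 shared UGT1A probe sets. UGT2B points lie below 0 except that the intervals of 217175_at include it, and the UGT1A points lie above 0, with PRMT5 shRNA 1 the farther from 0 on each probe set.

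The steps around glucuronidation moved less and in both directions. Of 7 genes listed for the supply of UDP-glucuronic acid, the sugar donor, and for steps near it, 2 were higher and 1 was lower with both hairpins averaged. Their median was 0.16, where 28.2% of all probe sets changed in either direction. UGDH, which makes the donor, was 1731 ± 45.5 with PRMT5 shRNA 1, 1510 ± 20.6 with PRMT5 shRNA 2 and 1856 ± 64.6 with NTC shRNA (SD, n = 2), and fell by 0.20 ± 0.05 (SE; limma, adjusted p = 0.0111). UGP2, which makes its precursor, rose by 0.25 ± 0.06 and the transporter SLC35D1 by 0.35 ± 0.11 (limma, adjusted p = 0.0155 and 0.0358). With PRMT5 shRNA 1 alone UGDH, UGP2 and SLC35D1 did not pass (limma, adjusted p = 0.185, 0.0878 and 0.154). With PRMT5 shRNA 2 alone each passed, and UGDH differed between the hairpins (limma, adjusted p = 0.0264). The 2 kept UGP2 probe sets ranged between 0.01 and 0.25, 1 of them called. The 3 of SLC35D1 ranged between 0.04 and 0.48, 2 of them called.

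Among androgen-forming enzymes, 6 of 14 were tested, 2 were higher and 1 lower, with a median of 0.16 (13.5% of all probe sets were higher and 14.7% lower). Steroid sulfatase (STS) rose by 0.30 and HSD17B6 by 0.22, and AKR1C3, which makes testosterone, fell by 0.19 (limma, adjusted p = 0.0306, 0.0159 and 0.0479). STS did not pass with PRMT5 shRNA 1 alone and passed with PRMT5 shRNA 2 (limma, adjusted p = 0.142 and 0.0254). Its 3 kept probe sets ranged between 0.10 and 0.30, 1 of them called. HSD17B6 had 0.04 with PRMT5 shRNA 1 and 0.41 with PRMT5 shRNA 2, and AKR1C3 had -0.34 and -0.04, and both differed between the hairpins (limma, adjusted p = 0.00335 and 0.0151). Of 20 other androgen-inactivating enzymes 7 were tested, with 2 higher, 2 lower and a median of 0.00. AKR1C1, a reductase, rose by 0.53 ± 0.11 and HSD17B4 by 0.20, and the hydroxylase CYP7B1 fell by 0.49 ± 0.09 and the sulfotransferase SULT1A1 by 0.37 ± 0.07 (SE; limma, adjusted p = 0.00367, 0.0115, 0.00284 and 0.00269). SULT1A1 had -0.55 with PRMT5 shRNA 1 and -0.19 with PRMT5 shRNA 2, where it did not pass, and differed between the hairpins (limma, adjusted p = 0.00880). Its 3 kept probe sets ranged between -0.37 and -0.09, 2 of them called. For AKR1C1 the 2 kept probe sets had 0.10 and 0.53, and for CYP7B1 -0.28 and -0.49, with 1 called in each gene. Members of the AKR1C family are near-identical, so their probe sets may share signal.

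Of 11 steroid and glucuronide transporters 6 were tested, with 1 higher, 2 lower and a median of -0.01 (13.5% of all probe sets were higher and 14.7% lower). SLCO4A1, an organic anion carrier, fell by 0.55 ± 0.07 (SE; limma, adjusted p = 0.000261). It had -0.75 with PRMT5 shRNA 1 and -0.36 with PRMT5 shRNA 2, which differed (limma, adjusted p = 0.00815). The exporter ABCC3 had 19.8 and 18.0 with PRMT5 shRNA 1, 27.1 and 28.7 with PRMT5 shRNA 2, and 13.9 and 15.1 with NTC shRNA, where both arrays lay under their medians. Set against those medians, its intensity was 1.20-fold higher with PRMT5 shRNA 1 and 1.78-fold with PRMT5 shRNA 2 (limma, adjusted p = 0.0156 averaged). ABCC3 did not pass with PRMT5 shRNA 1 alone, passed with PRMT5 shRNA 2, and differed between the hairpins (limma, adjusted p = 0.185, 0.00659 and 0.0450). ABCG2, another exporter, had 15.9 and 16.5, 16.4 and 11.5, and 25.9 and 26.9 in the same groups, with 1 array of each hairpin under its median, and was lower (limma, adjusted p = 0.00748 averaged). Several of these small changes rest on single arrays. Without either NTC shRNA array in turn, UGP2 and ABCC3 lost their calls, and AKR1C3 lost its call in 10 of 16 alternatives, STS in 7 of 15, SLC35D1 in 7 of 16, and UGDH, HSD17B4 and HSD17B6 in 3 of 16 each. SULT1A1 lost its call with both hairpins as 1 group, ABCG2 without NTC shRNA replicate 2 and AKR1C1 without NTC shRNA replicate 1.

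Of 21 transcription factors reported for UGT2B genes, 11 were tested, 4 were higher and 1 lower, with a median of 0.07 (13.5% of all probe sets were higher and 14.7% lower). VDR, the vitamin D receptor, was the lower one, at 135 ± 7.07 with PRMT5 shRNA 1, 190 ± 1.34 with PRMT5 shRNA 2 and 398 ± 30.2 with NTC shRNA (SD, n = 2). It fell by 1.23 ± 0.07 (SE; limma, adjusted p = 4.93e-07), and its 3 kept probe sets ranged between -1.23 and -0.09, 2 of them called. CDX2, an intestinal homeobox factor, had 35.3 and 26.5 with PRMT5 shRNA 1, 28.9 and 30.9 with PRMT5 shRNA 2, and 11.5 and 17.5 with NTC shRNA, where 1 array lay under its median. It rose (limma, adjusted p = 0.00286 averaged), by 0.27 to 1.04 on the log2 scale over the alternatives, and lost its call without NTC shRNA replicate 1. CEBPA rose by 0.35 ± 0.10, PPARA, a fatty acid receptor, by 0.33 ± 0.08, and RXRA, its partner, by 0.25 ± 0.05 (SE; limma, adjusted p = 0.0239, 0.00846 and 0.00540). CEBPA lost its call in 6 of 16 alternatives, PPARA in 3 of 16, without either NTC shRNA array among them, and RXRA in 2 of 15. The 5 kept PPARA probe sets ranged between -0.23 and 0.33, 2 of them called. With PRMT5 shRNA 1 alone PPARA and CEBPA did not pass (limma, adjusted p = 0.219 and 0.0905). FOXA1, a pioneer factor of prostate cells, had -0.13 ± 0.08 and did not pass (limma, adjusted p = 0.276).

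**Figure D3:**
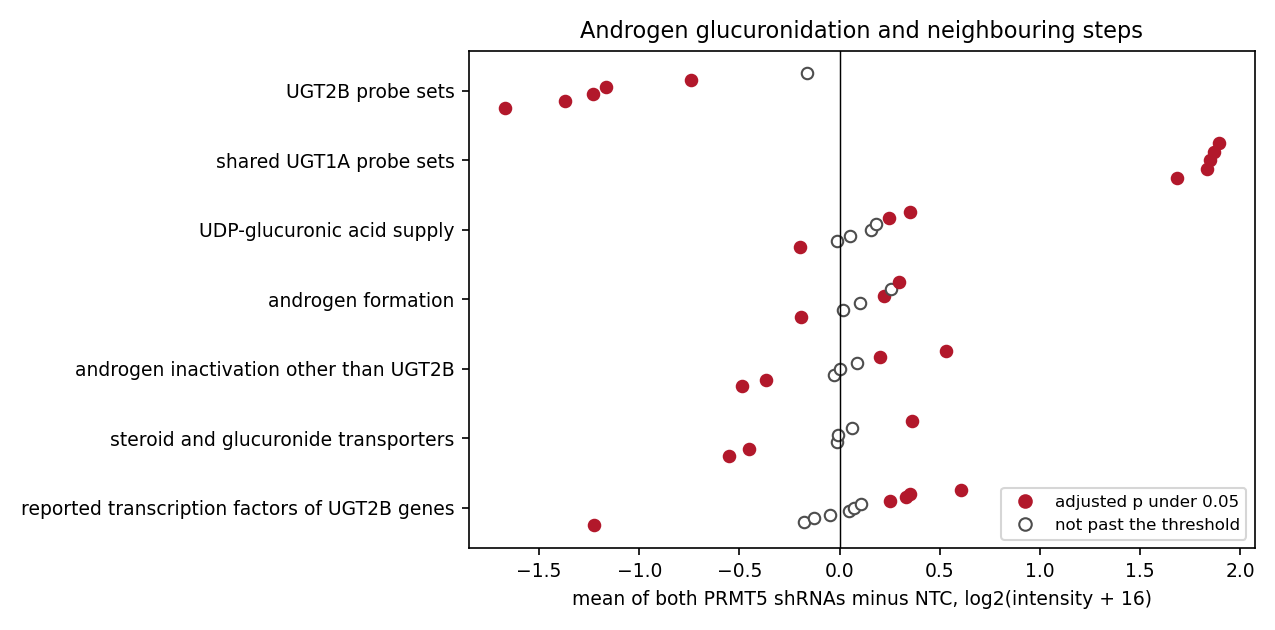
Difference in log2(intensity + 16) of both PRMT5 shRNAs averaged minus NTC shRNA, one point per probe set or gene, by list, with filled points past the threshold. The called UGT2B points lie at -0.74 and below and the shared UGT1A points at 1.68 and above, whereas the other lists scatter around 0 apart from VDR at -1.23.

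The UGT2 genes lie side by side on chromosome 4, and the tested members of the cluster fell while genes on either side did not move as one. Of the 10 protein-coding neighbours on each side, 4 were tested. The genes directly beside the cluster, TMPRSS11E and SULT1B1, did not pass the filter, and on the side of SULT1B1 only ODAM was tested. CENPC, a centromere protein, fell by 0.38 ± 0.08, UBA6 had -0.11 ± 0.05 and YTHDC1 0.00 ± 0.05 (SE; limma, adjusted p = 0.00526, 0.155 and 0.995). CENPC had -0.72 with PRMT5 shRNA 1 and -0.04 with PRMT5 shRNA 2, which differed (limma, adjusted p = 0.000915), and its averaged call was lost with both hairpins as 1 group and without NTC shRNA replicate 2. ODAM, a secreted protein of the enamel-forming epithelium, was 512 ± 13.5 with PRMT5 shRNA 1, 456 ± 15.6 with PRMT5 shRNA 2 and 182 ± 1.77 with NTC shRNA (SD, n = 2), and rose by 1.34 ± 0.06 (SE; limma, adjusted p = 6.63e-08).

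**Figure D4:**
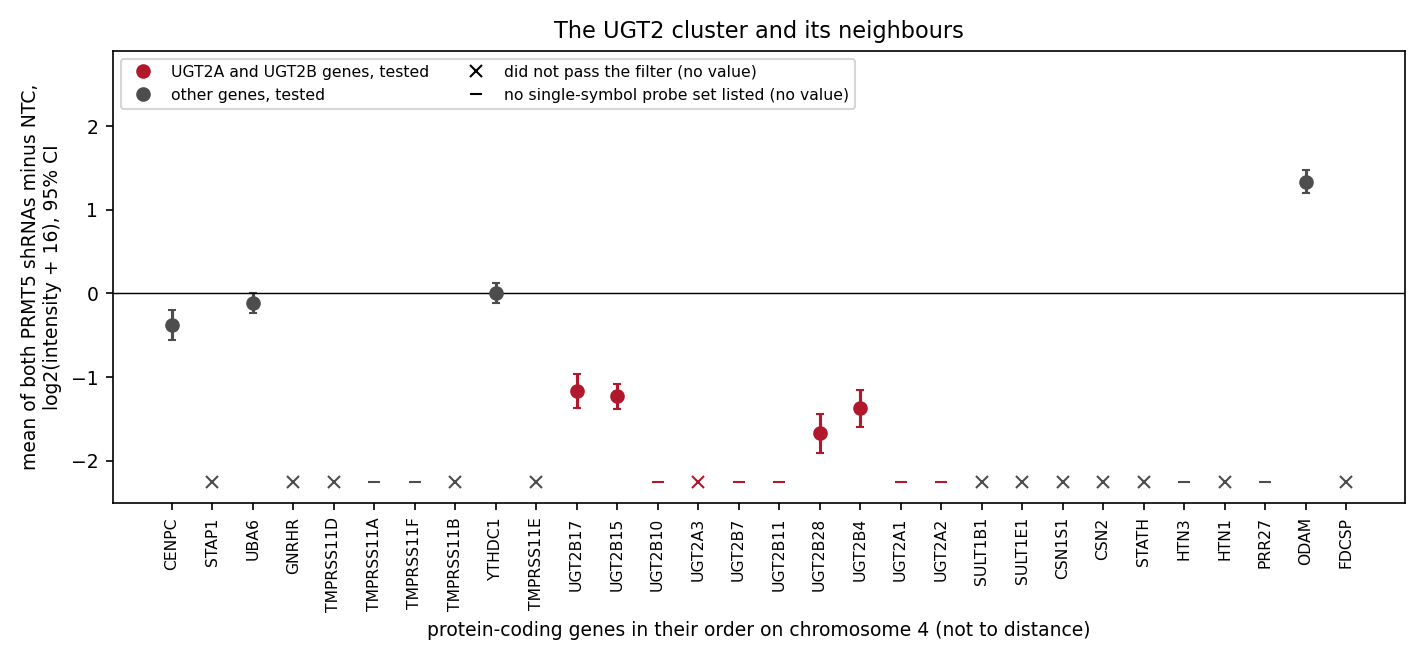
Difference in log2(intensity + 16) of both PRMT5 shRNAs averaged minus NTC shRNA, with 95% confidence interval, for the UGT2 genes and their neighbours in their order on chromosome 4 (not to distance), crosses and dashes marking genes without a value. The 4 tested UGT2B genes lie between -1.67 and -1.17, and ODAM at 1.34.

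Of 7 intestinal markers 4 were tested, 2 fell and 1 rose (14.7% of all probe sets were lower and 13.5% higher). The list summed to 206 to 219 with PRMT5 shRNA 1, 258 to 275 with PRMT5 shRNA 2 and 603 to 612 with NTC shRNA, with 3 of 7 markers under the median on every array. SI, sucrase-isomaltase, was 102 ± 0.141 with PRMT5 shRNA 1, 147 ± 16.5 with PRMT5 shRNA 2 and 472 ± 5.52 with NTC shRNA (SD, n = 2), and fell by 1.81 ± 0.08 (SE; limma, adjusted p = 3.96e-08). The adhesion protein CDH17 fell by 0.62 ± 0.10 (SE; limma, adjusted p = 0.000841), while CDX2 rose. ACTB signal at the 3′ end over that at the 5′ end, a measure of RNA quality, was 3.49 and 3.88 with PRMT5 shRNA 1, 5.72 and 5.0 with PRMT5 shRNA 2, and 4.58 and 4.88 with NTC shRNA, and these groups did not overlap. For GAPDH it was 1.21 to 1.33 over all arrays. The part of these in the UGT2B differences was not tested.

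Genes whose profile over the 6 arrays was most like a member's were ranked by the root mean square difference of centred log2(intensity + 16) values among 12404 genes, as a description. For UGT2B15 they were MCC (0.0422), SLC24A2 (0.0820), GDA (0.0913), SMOC2 (0.0971) and VDR (0.0974), where the median gene had 0.634. For UGT2B17 they were N4BP2L1 (0.0643), ANKRD30B (0.0696), RERG (0.0842), PLPPR1 (0.0906) and LINC00294 (0.0914). UGT2B28 was nearest to TUNAR (0.110), F5 (0.120), SI (0.127), DCLK1 (0.127) and DEPDC7 (0.145). UGT2B4 was nearest to LINC01687 (0.0648), HGF (0.0689), RHOJ (0.0746), CLDN1 (0.0968) and N4BP2L1 (0.102). Between members the measure was 0.115 for UGT2B4 and UGT2B17 and 0.294 for UGT2B28 and UGT2B17, the nearest and the farthest pair.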

How the data were processed

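Arrays were probed with amplified, biotin-labelled RNA, per the labels' protocols. The authors deposited MAS5 intensities, per the submitters' processing notes, and the version is not given in the sources used here. Each array had a 2% trimmed mean of about 150.0, so no scaling was added. Gene symbols came from the platform annotation. Control probe sets (62) were left out, and a probe set was tested if it reached its array's median in at least 2 of 6 arrays, which left 28601. Values as log2(intensity + 16) were fitted with limma 3.58.1 in R 4.3.3 (a coefficient per group, 6 arrays, eBayes with trend, 3 residual and 8.11 prior degrees of freedom), two-sided, with Benjamini-Hochberg adjustment over all probe sets and calls under 0.05. A list gene is its brightest kept single-symbol probe set. Text names all members, up to 4 called genes per list with the largest differences, members on which a result turns, and 5 like genes per member. Members and lists were chosen with earlier results of these data known, and the promoter motifs were also chosen then. The script was tested on simulated data. Alternatives were pseudocount, filter, quantile scaling, probe set choice, variance trend, samples fitted, replicate block and each array left out. The number of arrays limits the precision.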

Additional observations from a re-analysis of the deposited data

Results flagged for a closer look

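The effect of the hairpins differed in size, tested as PRMT5 shRNA 2 minus PRMT5 shRNA 1 within limma's fit (adjusted p under 0.05 over all probe sets). The UGT2B differences were 0.68 for UGT2B28 211682_x_at, 0.65 for UGT2B15 207392_x_at, 0.53 for UGT2B15 216687_x_at, 0.36 for UGT2B17 207245_at and 0.36 for UGT2B4 206505_at, all higher with PRMT5 shRNA 2. The UGT2B4 value is set against PRMT5 shRNA 1 arrays under their medians, with which the intensity was at least 1.26-fold higher. The shared UGT1A probe sets were lower with PRMT5 shRNA 2, at -0.73 (208596_s_at), -0.51 (204532_x_at), -0.50 (206094_x_at), -0.44 (207126_x_at) and -0.33 (215125_s_at). PRMT5 intensity (SD, n = 2) was 306 ± 21.1 in the group of PRMT5 shRNA 2, against 135 ± 1.27 for PRMT5 shRNA 1. Groups of 2 arrays are too small to single out an array.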

How the results depend on the processing

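Against NTC shRNA, the calls of UGT2B4, UGT2B17, UGT2B28 and UGT2B15 207392_x_at kept their direction and stayed past the threshold in each alternative run. With both hairpins averaged, UGT2B4 ranged between -2.00 and -0.71, UGT2B17 between -1.42 and -0.75, UGT2B28 between -1.93 and -1.19 and UGT2B15 207392_x_at between -1.29 and -1.07. Without _x_at and _s_at probe sets, 2 of 3 remaining UGT2B probe sets were called in each of the 4 comparisons. Without a filter, 4 were called with PRMT5 shRNA 2 and 3 between the hairpins. Leaving out 1 array gave 5 called in the averaged comparison and with PRMT5 shRNA 1, 4 to 5 with PRMT5 shRNA 2 and 2 to 4 between the hairpins, with 2 when replicate 2 of either hairpin was left out. With the replicate block, 5 were called in each of the 4 comparisons, so the block changed no call count. The labels do not tie equal replicate numbers together, and deviations of same-numbered arrays correlated at -0.000185, -0.0627 and -0.143. The sign of 217175_at, never called, turned when 1 array was left out, with ranges of -0.53 to 0.039 (PRMT5 shRNA 1), -0.31 to 0.15 (PRMT5 shRNA 2), -0.39 to 0.071 (averaged) and -0.12 to 0.45 (between hairpins). Between the hairpins UGT2B4 lost its call in 9 of 16 alternatives, UGT2B17 in 5 of 16 and UGT2B15 216687_x_at in 2 of 14. Over all probe sets, 8068 were called in the averaged comparison, 2518 with both hairpins as 1 group of 4, and 4173 to 8635 with 1 array left out. Against NTC shRNA with 1 array left out, counts were 6526 to 11308 (10435 with all) for PRMT5 shRNA 1 and 2768 to 4835 (5161) for PRMT5 shRNA 2, and 3233 to 6588 (7375) between the hairpins. The cause was not tested. Under the stricter filter of 50, 217175_at was not tested. Signal near the array medians limits UGT2B4 and 217175_at.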
